A study of Mus musculus with 65 samples.

Results

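Prss35, Sema3d and Slc13a5 are 3 of the 15830 genes that could be named on the arrays, and 40 of the 179614 probe sets with 1 gene symbol belong to them. Prss35 had 6 probe sets, Sema3d had 20 and Slc13a5 had 14. The 3 genes were chosen by their fall in bone between 4 months and the later ages, so the bone values of the genes themselves are given below as a description with no test.

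The arrays were 65 Affymetrix Mouse Exon 1.0 ST chips, each hybridised with RNA of 1 tissue sample from 25 male wild-type C57BL/6J mice. There were 13 groups of 5 arrays: bone from the tibia, skeletal muscle from the thigh and ventral skin, each at 4, 18 and 28 months, and 2 tissues at 4 and 18 months only, thymus and white adipose tissue from the abdomen. No group carried a treatment or an engineered allele, and each age was a separate set of animals, so age and cohort cannot be told apart. The 5 mice that gave 4-month bone gave no other tissue, whereas the older mice gave several, and the 4-month skin and muscle groups held mice of a second ID series, 6JA. The 4-month thymus and white adipose arrays came from the same 5 mice. Some of these mice also gave 4-month skin or muscle, and some 6JA mice gave both. The main fit treated all arrays as independent. Each gene's probe sets were averaged on the log2 scale to give its gene value, and a difference of 1 on this scale is a 2-fold change.

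Prss35 encodes a secreted protein of the trypsin-like serine protease family whose active site lacks the usual serine. Sema3d encodes a class 3 semaphorin, a secreted guidance protein that acts on cells through neuropilin and plexin receptors and is known from axon, neural crest and vessel development. Slc13a5 encodes a sodium-coupled citrate transporter of the cell membrane that brings citrate into the cell. Bone matrix is laid down by osteoblasts, some of which become osteocytes buried in the mineral, and citrate is a known component of that mineral.

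The genes lie on different chromosomes (positions in GRCm38.p6, from RefSeq): Prss35 (gene ID 244954) at chr9:86743240-86758443, Sema3d (108151) at chr5:12383161-12588953 and Slc13a5 (237831) at chr11:72241990-72267295. Their promoter windows, the 250 bases before each annotated start in RefSeq, are shown because the 3 genes fell together in bone. There was 1 window for Prss35, 1 for Sema3d and 2 for Slc13a5. The part of the Sema3d and Slc13a5 windows outside the annotated gene is printed, with 30 bases of the Prss35 window around its only match, each 5′ to 3′ on the gene's own strand. Capitals mark a match to one of the searched motifs.
Prss35, chr9:86743586-86743615, plus strand: ccctctaagtcagCGTCAtcgccccttccc
Sema3d, chr5:12382916-12383160, plus strand: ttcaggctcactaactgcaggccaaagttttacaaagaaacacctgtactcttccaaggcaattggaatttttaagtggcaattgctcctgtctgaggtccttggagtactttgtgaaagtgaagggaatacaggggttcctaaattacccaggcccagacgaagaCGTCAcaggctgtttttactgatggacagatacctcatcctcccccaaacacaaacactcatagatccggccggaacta
Slc13a5, chr11:72267296-72267411, minus strand: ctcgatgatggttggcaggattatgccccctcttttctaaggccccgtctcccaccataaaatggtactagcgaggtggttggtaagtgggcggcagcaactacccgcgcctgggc

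The motifs searched on both strands were TGTGGT (RUNX), TGACG (cyclic AMP response element half-site), CTTTGA (TCF/LEF) and TGANTCA (AP-1), and no match overlapped another. The Prss35 and Sema3d windows each held 1 match, to TGACG on the opposite strand, beginning 34 and 84 bases before the start. TGACG was also present in 17.8% of the 32851 promoter windows of this length, TGTGGT in 14%, CTTTGA in 13.8% and TGANTCA in 6.75%. The 2 windows of Slc13a5 held no match to any of these letters.

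Bone markers were present under the bone label. The mean of 11 osteocyte genes was 7.60 ± 0.15 (SD, n = 5) in bone at 4 months and at most 4.99 in the group means of the other tissues. Some bone arrays stood apart. The mean of 6 erythroid genes was 5.16 in replicate 5 at 28 months, against 9.47 to 10.6 in the other 14 bone arrays, and the mean of 7 B lymphocyte genes was 4.78 in replicate 1 at 28 months, against 6.15 to 8.10 in the others. The mean of 9 skeletal muscle fibre genes ranged between 6.21 and 11.2 over the bone arrays, with group means of 7.77 at 4 months, 9.36 at 18 months and 10.01 at 28 months. Results that rest on the 2 arrays at 28 months are given with and without them.

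All 3 genes were lower in bone at both later ages, and no array at 18 or 28 months overlapped the 4-month arrays. For comparison, 0.379% of all genes tested passed the limma test (adjusted p below 0.05) and were at least 2-fold lower in bone at 18 months than at 4 months, and 0.796% did so at 28 months. Because these contrasts chose the genes, nothing is read from this.

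Prss35 had values of 6.30, 5.78, 6.15, 6.62 and 5.78 in the 5 bone arrays at 4 months. The values were 3.81, 3.94, 4.02, 3.65 and 3.93 at 18 months, and 2.90, 3.89, 3.06, 4.23 and 2.81 at 28 months. The 18-month arrays lay close together, and the 28-month arrays spread around them on both sides. The difference from 4 months was -2.26 (SE 0.19) at 18 months, a 4.78-fold lower signal, and -2.75 (SE 0.19) at 28 months, a 6.72-fold lower signal. In replicates 1, 3 and 5 at 28 months Prss35 was below the lower quartile of all gene values on the same array (3.30, 3.20 and 3.19). No detection call was used, so the background of the arrays may make the 28-month fold too small. Replicates 1 and 5 are also the arrays that stood apart, and the fold is smaller without them, so it is not a strict bound. Between 28 and 18 months the difference was -0.49 (SE 0.19). Without replicates 1 and 5 at 28 months the 28-month arrays differed by -2.40 from 4 months and by -0.14 from 18 months.

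Sema3d had values of 7.21, 7.43, 7.88, 7.87 and 7.71 in bone at 4 months. The values were 4.03, 4.94, 5.33, 5.24 and 5.67 at 18 months, and 4.37, 4.95, 4.68, 5.40 and 3.58 at 28 months. Replicate 1 was the lowest array at 18 months and replicate 5 the lowest at 28 months, and the arrays of both later ages overlapped. The difference from 4 months was -2.58 (SE 0.33) at 18 months, 5.98-fold lower, and -3.02 (SE 0.33) at 28 months, 8.13-fold lower. Sema3d differed by -0.44 (SE 0.33) between 28 and 18 months. Without the same 2 arrays at 28 months it differed by -2.61 from 4 months and by -0.03 from 18 months.

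Slc13a5 had values of 8.13, 8.41, 7.79, 8.4 and 7.36 in bone at 4 months. The values were 4.48, 5.65, 5.76, 5.32 and 5.57 at 18 months, and 4.32, 6.92, 6.51, 6.46 and 3.52 at 28 months. The 28-month arrays fell into 3 values above every 18-month array and 2 below all of them. The difference from 4 months was -2.66 (SE 0.30) at 18 months, 6.33-fold lower, and -2.47 (SE 0.30) at 28 months, 5.54-fold lower. Between 28 and 18 months Slc13a5 differed by 0.19 (SE 0.30). Without replicates 1 and 5 at 28 months it differed by -1.39 from 4 months and by 1.28 from 18 months.

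**Figure D1:**
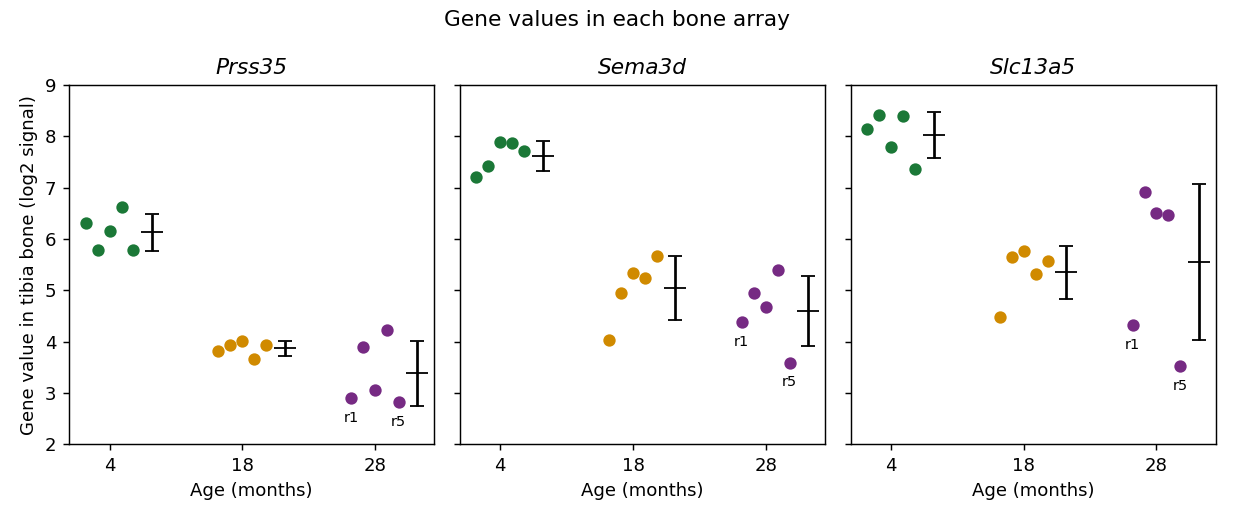
Gene value (mean log2 signal of the probe sets) of Prss35, Sema3d and Slc13a5 in each of 15 bone arrays, by age in months. Points are arrays in order of replicate number, bars are the mean and SD of 5 arrays, and r1 and r5 mark replicates 1 and 5 at 28 months. Every 4-month array lies above every later array, and the Slc13a5 arrays at 28 months range between 3.52 and 6.92.

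In bone homogenate, fewer cells of a type and less RNA per cell cannot be told apart. In bone at 18 against 4 months 1562 of all 15830 genes had an unadjusted p below 0.05 in the limma test. Of the 9 muscle fibre genes none passed in bone at 18 against 4 months (limma, 3 at an unadjusted p below 0.05, median change 1.54), and 4 rose at 28 months (median 2.19). The 28-month count was 2 without replicates 1 and 5 at that age, and with single arrays left out it was 7 without 4-month replicate 1, 2 without 4-month replicate 3 or 28-month replicate 1, and 1 without 4-month replicate 2 or 4 or 28-month replicate 2, 3 or 4. Muscle fibre means ranged between 7.41 and 11.2 in the 18-month arrays, against 6.21 to 9.89 in the 4-month arrays. The part of muscle in the fall of the 3 genes was not tested.

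The fall was spread over the probe sets of each gene. At 18 months 14 of 14 probe sets of Slc13a5, 20 of 20 of Sema3d and 5 of 6 of Prss35 were lower than at 4 months, and the counts were the same at 28 months. For Slc13a5 the changes at 18 months ranged between -3.17 and -2.05 over probe sets. For Sema3d they ranged between -3.57 and -0.64, and 2 probe sets with low signal at 4 months (means of 4.08 and 3.76) had the smallest changes, -0.64 and -1.01.

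For Prss35 the changes at 18 months ranged between -3.43 and 0.18. Its probe set 5481053 had means of 2.93, 3.12 and 3.12 at 4, 18 and 28 months and so did not share the fall, and probe set 5283183, at 4.02 in bone at 4 months, changed by -0.89 at 18 months. The other 4 probe sets of Prss35 had means between 6.41 and 8.39 at 4 months and changed by between -3.43 and -2.93. The mean over 6 probe sets is therefore a smaller fall than most of the gene's probe sets showed.

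**Figure D2:**
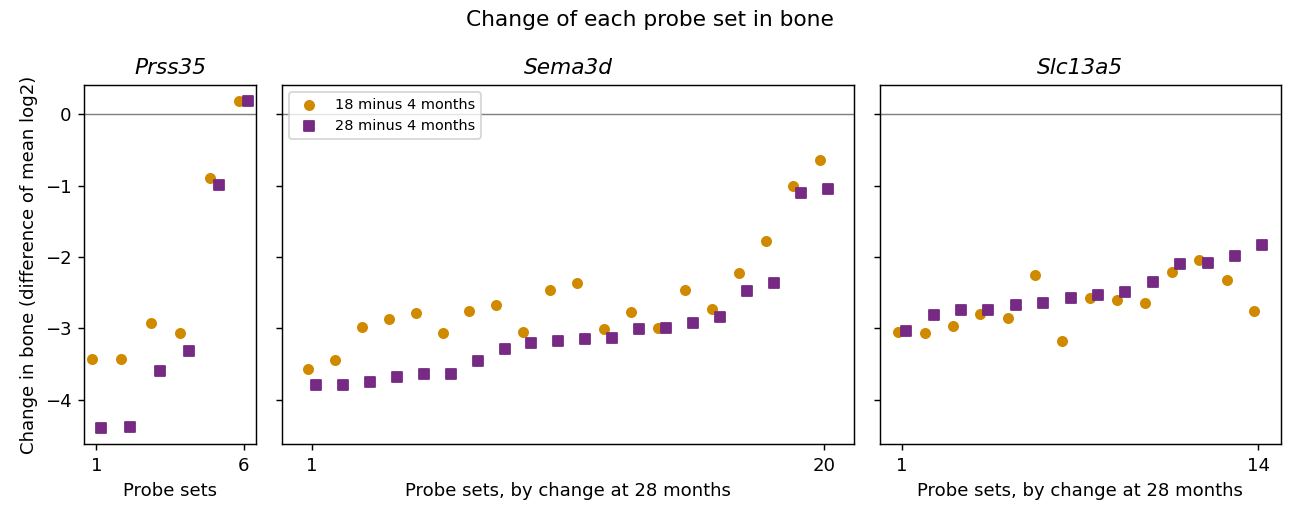
Difference of mean log2 signal in bone for each probe set, 18 minus 4 months (circles) and 28 minus 4 months (squares), ordered by the change at 28 months. All probe sets of Sema3d and Slc13a5 lie below 0, and 1 of 6 of Prss35 lies above it, at 0.18 for both ages.

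Outside bone the 3 genes differed in where they were found. Sema3d had its highest signal of all groups in skin, with means of 8.49 ± 0.71, 8.20 ± 0.74 and 9.06 ± 0.16 at 4, 18 and 28 months (SD, n = 5 each), beside 7.62 ± 0.29 in bone at 4 months. White adipose tissue followed at 4.97 ± 0.63 and 5.02 ± 0.68 at 4 and 18 months. Thymus had 4.14 ± 0.08 and 4.35 ± 0.76 at these ages, and muscle had 3.91 ± 0.37, 4.00 ± 0.26 and 4.19 ± 0.24 at 4, 18 and 28 months. The 18- and 28-month bone means of 5.04 ± 0.62 and 4.60 ± 0.68 lay in the range of the adipose and thymus arrays.

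Among the tissues that played no part in choosing the gene, the order of Sema3d at 4 months was skin, white adipose tissue, thymus and muscle. Skin exceeded muscle by 4.58, thymus by 4.34 and white adipose tissue by 3.51 (SE 0.33 each, limma adjusted p = 5.16e-18, 2.65e-17 and 1.83e-13). These pairs of tissues differed at an adjusted p below 0.05 in 61.2%, 54.3% and 43.2% of all genes. Muscle was lower than white adipose tissue by 1.07 (difference -1.07, adjusted p = 0.00516, 56.9% of all genes passing), and in a fit without the 6JA mice it was -0.45 and did not pass (adjusted p = 0.61). That fit held 1 array of 4-month muscle, replicate 1, which had the highest Sema3d value of the 5 (4.52) and was assumed to vary like the other groups. The difference of thymus from white adipose tissue was -0.83 (adjusted p = 0.0306, 52.5% of all genes passing), and it was not called without thymus replicate 1 or 4 or without white adipose replicate 1, 2 or 3, with values between -0.69 and -1.05 over all arrays left out in turn. Thymus and white adipose tissue at 4 months came from the same 5 mice, which the main fit did not take into account. Muscle and thymus were neighbours that the test did not separate (-0.24, 95% interval -0.90 to 0.42, 61.7% of all genes passing).

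Prss35 was low in every group outside bone. Its values there ranged between 2.77 and 4.62 over 50 arrays, with a median of 2.98. Only skin replicate 5 at 4 months and skin replicate 1 at 18 months (3.47) were above the lower quartile of all gene values on the same array. No detection call was used, so in the other arrays Prss35 cannot be told from the background. The tissue differences below are limited by this. Skin at 4 months had the highest group mean, 3.39 ± 0.70, and its replicate 5 was at 4.62, while the other skin arrays at that age lay between 2.98 and 3.26. Skin exceeded thymus by 0.49 and white adipose tissue by 0.46 at 4 months (SE 0.19, adjusted p = 0.0248 and 0.0437), and without this array the differences were 0.18 and 0.15 and neither was called. The call against thymus was also lost without thymus replicate 4 (0.46), and the call against white adipose tissue was lost without its replicate 1, 3, 4 or 5 (between 0.42 and 0.47). The difference of skin from muscle was 0.42 (SE 0.19, adjusted p = 0.0503), and it passed without skin replicate 1, 3 or 4 (between 0.50 and 0.52).

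Slc13a5 was also low outside bone, with values between 3.07 and 4.14 and a median of 3.29 over 50 arrays. At 4 months between 7649 and 10323 of all 15830 genes had an unadjusted p below 0.05 in each pair of tissues outside bone. None of the 6 differences of Slc13a5 between these tissues at 4 months passed, in the limma test or at an unadjusted p below 0.05, and they ranged between -0.15 and 0.24. The lower quartile of all gene values lay between 3.19 and 3.83 over the 65 arrays, and no detection call was used, so the mean over its 14 probe sets cannot be told from the background of the arrays. Single probe sets were higher outside bone. Probe set 4955846 had group means between 4.73 and 5.72 in these tissues, probe set 4374921 had 4.91, 5.05 and 4.51 in skin at 4, 18 and 28 months and at most 3.73 in the other tissues, and probe set 4974251 had 4.08, 5.25 and 5.40 in muscle at 4, 18 and 28 months. The other 11 probe sets had group means of at most 4.05.

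**Figure D3:**
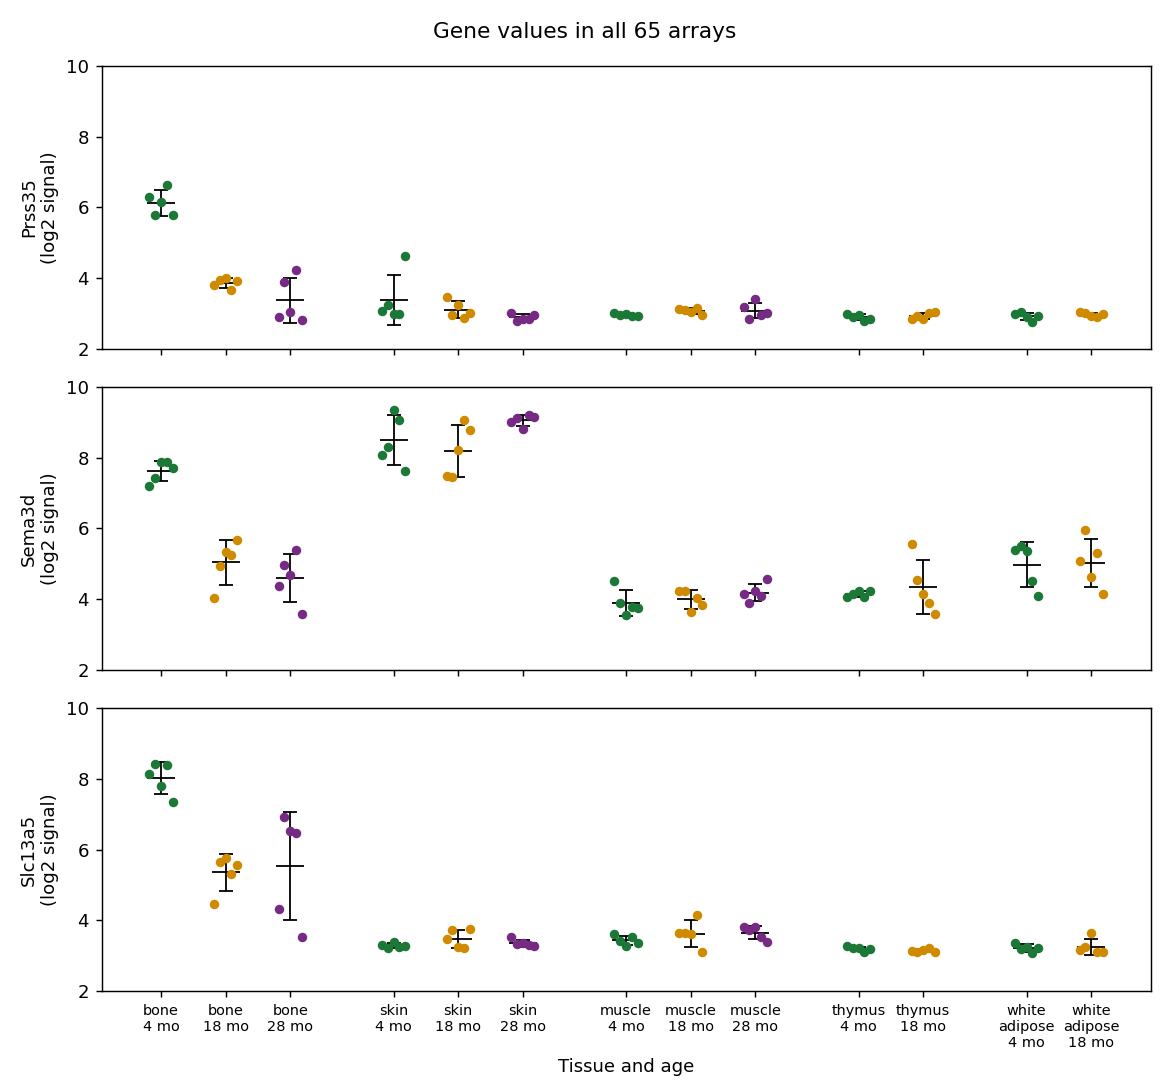
Gene value (log2 signal) of each gene in all 65 arrays, by tissue and age in months. Points are arrays, bars are the mean and SD of 5 arrays. Prss35 and Slc13a5 are highest in bone at 4 months, and Sema3d is highest in skin, where its group means lie between 8.20 and 9.06.

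None of the 3 genes passed the limma test of age in any of the 8 comparisons outside bone, and 2 of the 24 values had an unadjusted p below 0.05. The same unadjusted count was taken over all 15830 genes. In skin it was 756 at 18 against 4 months, 4534 at 28 against 4 and 4814 at 28 against 18. In muscle it was 3701, 5351 and 4251 for the same pairs of ages. At 18 against 4 months it was 1208 in thymus and 2505 in white adipose tissue. Among all genes 0.107% passed in skin at 18 against 4 months, 16.9% at 28 against 4 months and 19.4% at 28 against 18 months. In muscle the shares were 8.4%, 18.6% and 13.3% for the same pairs of ages. At 18 against 4 months 0.67% passed in thymus and 3.34% in white adipose tissue. Slc13a5 changed by between -0.13 and 0.22 in these comparisons, Prss35 by between -0.50 and 0.12 and Sema3d by between -0.29 and 0.86.

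The values nearest the threshold were in skin. Sema3d had values of 8.995, 9.11, 8.82, 9.21 and 9.16 in skin at 28 months, against 7.49, 7.44, 8.22, 9.07 and 8.77 at 18 months. The groups overlapped, and the difference was 0.86 (SE 0.33, 95% interval 0.20 to 1.52, adjusted p = 0.0583). It passed when replicate 4 or 5 at 18 months was left out (1.08 and 1.002), and ranged between 0.67 and 1.08 over the arrays left out in turn. Against 4 months the change in skin was 0.57 (SE 0.33) at 28 months and -0.29 (SE 0.33) at 18 months. Prss35 differed by -0.50 in skin between 28 and 4 months (SE 0.19, adjusted p = 0.063), and by -0.19 without the 4-month replicate 5. It passed without 4-month replicate 1, 3 or 4 (between -0.60 and -0.57).

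The change with age was also compared between tissues outside bone, and none of the 24 tests passed (limma, smallest adjusted p = 0.129, with 1 at an unadjusted p below 0.05). In each comparison, between 1092 and 4170 of all 15830 genes had an unadjusted p below 0.05. Among all genes the skin change at 18 months differed from that in muscle for 0.48%, from that in thymus for 0.0948% and from that in white adipose tissue for 0.0632%. The muscle change differed from that in thymus for 0.442% and from that in white adipose tissue for 0.701%, and the thymus change differed from the adipose change for 0.158%. Skin and muscle differed for 11.6% of all genes in the change between 28 and 4 months and for 11.3% between 28 and 18 months. The 24 differences of the 3 genes lay between -0.61 and 0.67.

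The mice with low Sema3d in bone gave other tissues too. Replicate 5 at 28 months in bone, with Sema3d at 3.58, came from a mouse whose skin had 9.16 and whose muscle had 4.56, the highest muscle value at that age. Replicate 1 at 28 months in bone, with Sema3d at 4.37, came from a mouse with 8.995 in skin, next to the lowest of that group, and 4.15 in muscle. Replicate 1 at 18 months in bone, with Sema3d at 4.03, came from a mouse whose skin (7.49) and muscle (3.85) were next to the lowest of their groups, while its thymus (5.56) was the highest and its white adipose tissue had 5.08. None of these mice had the lowest Sema3d value of its group in another tissue.

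Within an age, deviations of the 3 genes from the age mean were compared over the 15 bone arrays with each other and with the means of 4 marker lists, 15 relations in all. Of these, 6 passed on Pearson's r and 2 on both Pearson's r and Spearman's rho, by 100000 permutations of arrays within age with Benjamini-Hochberg adjustment. The genes and lists were chosen with earlier results of these arrays known, so the p-values are not independent of that choice. The osteocyte list holds Tnfrsf11b, 1 of the genes most like Sema3d over bone arrays. The osteoblast list holds Col11a2, 1 of the genes most like Slc13a5 over group means. Sema3d varied with the osteocyte list (r = 0.92, permutation p = 0.00038, adjusted p = 0.0057, and rho = 0.79, permutation p = 0.00242, adjusted p = 0.0363), and r was 0.79 without the 2 arrays farthest from the median. Slc13a5 varied with the osteoblast list (r = 0.93, permutation p = 0.00168, adjusted p = 0.0126, and rho = 0.86, permutation p = 0.00648, adjusted p = 0.0486), with r = 0.84 without the 2 farthest arrays.

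The relation of Slc13a5 was smaller without the arrays that stood apart, and that of Sema3d was about as large but did not pass. Without replicates 1 and 5 at 28 months r was 0.88 for Sema3d and the osteocyte list (permutation adjusted p = 0.0582) and 0.56 for Slc13a5 and the osteoblast list (permutation adjusted p = 0.25). The relation of Slc13a5 was also not called without replicate 5 at 28 months alone (r = 0.87, permutation adjusted p = 0.0645) or without replicate 1 at 18 months (r = 0.94, permutation adjusted p = 0.0568). At 4, 18 and 28 months taken singly r was 0.28, 0.98 and 0.96 for Sema3d with osteocyte genes, and 0.58, 0.92 and 0.96 for Slc13a5 with osteoblast genes.

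The other relations that passed on Pearson's r alone were Sema3d with the osteoblast list (r = 0.72, permutation p = 0.00392, adjusted p = 0.0196, and rho = 0.64, permutation p = 0.0402, adjusted p = 0.0861), Sema3d with the erythroid list (r = 0.65, permutation p = 0.0147, adjusted p = 0.0368, and rho = 0.54, permutation p = 0.0247, adjusted p = 0.0861), Slc13a5 with the osteocyte list and Sema3d with Slc13a5. For Slc13a5 with the osteocyte list r was 0.66 (permutation p = 0.0118, adjusted p = 0.0354) and rho 0.43 (permutation p = 0.15, adjusted p = 0.205). Without the 2 farthest arrays r was 0.55, 0.28 and 0.53 for these 3 relations with lists. Without all 28-month arrays r was 0.34, 0.80 and 0.57 for the same 3 relations, and 0.51 for Sema3d with Slc13a5. Relations that passed on neither measure included Prss35 with the osteoblast list (r = 0.74 and rho = 0.71, permutation adjusted p = 0.0977 and 0.0861). Prss35 with the osteocyte list had r = 0.53 and rho = 0.50 (permutation adjusted p = 0.074 and 0.0966). With the erythroid list r was 0.65 and rho 0.575 for Slc13a5 (permutation adjusted p = 0.15 and 0.0861). For Prss35 they were 0.42 and 0.21 (permutation adjusted p = 0.508 and 0.641).

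Among the 3 genes themselves 1 pair passed on Pearson's r alone and no pair on both measures. For Sema3d and Slc13a5 r was 0.71 (permutation p = 0.0094, adjusted p = 0.0352) and rho 0.61 (permutation p = 0.0579, adjusted p = 0.0966), and r was 0.43 without the 2 farthest arrays and -0.28, 0.86 and 0.88 at 4, 18 and 28 months taken singly. For Prss35 with Sema3d r was 0.59 (permutation p = 0.0322, adjusted p = 0.069) with a rho of 0.64 (permutation p = 0.0322, adjusted p = 0.0861). For Prss35 with Slc13a5 r was 0.68 (permutation p = 0.0917, adjusted p = 0.138) with a rho of 0.62 (permutation p = 0.0815, adjusted p = 0.122). With the muscle fibre list r was 0.12 for Prss35, -0.07 for Sema3d and 0.11 for Slc13a5 (permutation p = 0.621, 0.83 and 0.644, adjusted p = 0.69, 0.83 and 0.69), and rho was 0.14, -0.23 and -0.01 (permutation p = 0.563, 0.424 and 0.961, adjusted p = 0.641, 0.53 and 0.961). At 4, 18 and 28 months taken singly r with this list was -0.517, -0.385 and 0.762 for Sema3d. It was -0.506, -0.254 and 0.735 for Slc13a5 and -0.09, 0.235 and 0.35 for Prss35. The pooled r of Sema3d and Slc13a5 therefore covers opposite signs at different ages.

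**Figure D4:**
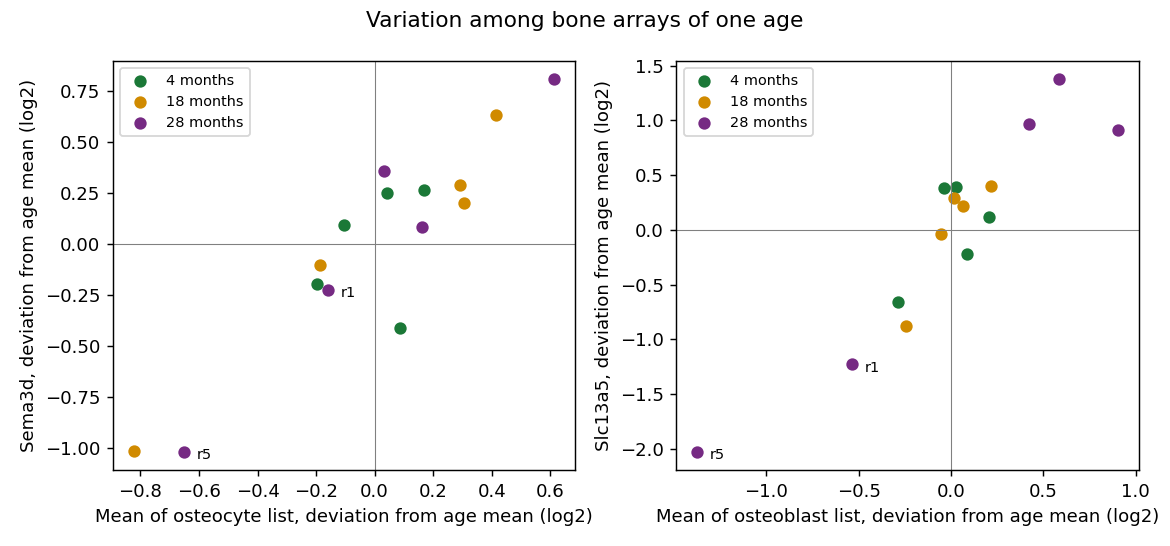
Deviation of Sema3d from its age mean against that of the osteocyte list, and of Slc13a5 against that of the osteoblast list (log2), in 15 bone arrays coloured by age. The points rise together (r = 0.92 and 0.93), and r1 and r5 mark replicates 1 and 5 at 28 months.

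The genes whose values were most like those of each gene over the 15 bone arrays were taken from 14184 genes with at least 3 probe sets. These correlations include the difference between ages that chose the 3 genes and are a description. For Prss35 they were Col15a1 (r = 0.97), Col24a1 (0.97), Adamtsl2 (0.96), Loxl2 (0.96) and Sema3d (0.95). Col24a1 is a fibrillar collagen of bone and Loxl2 an enzyme that cross-links collagen. For Sema3d they were Galnt5 (r = 0.98), Tnfrsf11b (0.98), Magi1 (0.97), Tgfb2 (0.96) and Prss35 (0.95), of which Tnfrsf11b encodes osteoprotegerin, the decoy receptor that restrains osteoclast formation. For Slc13a5 they were Adamts2 (r = 0.97), Gja1 (0.97), Col5a1 (0.95), Ano1 (0.95) and Cpz (0.95), where Adamts2 trims procollagen and Gja1 encodes connexin 43, the gap junction protein of osteoblasts and osteocytes.

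Over the 13 group means which include the high Sema3d values of skin, other genes came first. Prss35 was most like Col24a1 (r = 0.96), Tg (0.94) and Slc13a5 (0.93), and Slc13a5 was most like the Wnt inhibitor Dkk1 (r = 0.99), the collagen gene Col11a2 (0.99) and Ppfia2 (0.99). Sema3d was most like Tpbg (r = 0.98), the axon guidance receptor Robo2 (0.95) and the transcription factor Snai2 (0.95). Its r was 0.31 with Prss35 and 0.16 with Slc13a5.

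Other bone cell genes were set beside the 3. In bone 0.846% of all genes were lower and 0.341% were higher at 18 than at 4 months (limma adjusted p below 0.05), and 6.46% were lower and 8.14% higher at 28 than at 4 months. At an unadjusted p below 0.05 there were 1562 of 15830 genes at 18 months and 4828 at 28 months. Of 11 osteocyte genes 8 fell at 18 months and 9 at 28 months, where 1 rose, with medians of -1.55 and -1.52 beside 0.00 and -0.05 for all genes. The Wnt inhibitor Dkk1 fell by 2.00 (SE 0.23, adjusted p = 3.88e-09) at 28 months. Phex, which restrains phosphate loss through FGF23, fell by 2.20 (SE 0.27, adjusted p = 2.93e-08), and the matrix protein gene Mepe fell by 1.66 (SE 0.26, adjusted p = 4.29e-06). Bone SDs at 4 and 28 months were 0.29 and 1.01 for Dkk1, 0.23 and 1.34 for Phex and 0.38 and 0.93 for Mepe. The SE, pooled over all 13 groups, is too small for the wider spread at 28 months, so these p-values may be too small. With bone fitted alone 3 osteocyte genes passed at 18 months and 10 at 28 months, and with probe sets of mean log2 of at least 5 there were 4 at 18 months. Without replicates 1 and 5 at 28 months 8 fell and none rose at that age. The gene that rose was also not called without either of these arrays alone or without 4-month replicate 5.

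Of 19 osteoblast genes 5 fell at 18 months and 9 at 28 months, and none rose, with medians of -0.81 and -1.07. The 18-month count was 1 when bone was fitted alone and 1 with probe sets of mean log2 of at least 5. At 28 months 5 fell and 1 rose when bone was fitted alone. The tenascin gene Tnn fell by 1.78 (SE 0.19, adjusted p = 8.28e-10) at 28 months, Col11a2 by 1.73 (SE 0.25, adjusted p = 6.59e-07) and Kazald1 by 1.09 (SE 0.23, adjusted p = 0.000495). Bone SDs at 4 and 28 months were 0.73 and 0.27 for Tnn, 0.2 and 1.25 for Col11a2 and 0.27 and 0.66 for Kazald1. The limit on the pooled SE holds for these genes too. Without replicates 1 and 5 at 28 months, which had the lowest osteoblast means (6.57 and 5.74, against 7.53 to 8.01 in the other 3), only 2 passed at 28 months, with a median of -0.23. Without replicate 1 or replicate 5 alone 5 passed.

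Among the relatives of each gene both directions occurred. Of 11 other class 3 semaphorin and receptor genes none passed at 18 months (limma, 4 at an unadjusted p below 0.05), and at 28 months the plexins Plxna1 and Plxna4, which are receptor chains for these ligands, rose by 1.03 (SE 0.22, adjusted p = 0.000917) and 0.80 (SE 0.24, adjusted p = 0.0186). Sema3b fell by 0.64 (SE 0.22, adjusted p = 0.04). The list medians were -0.13 at 18 months and -0.10 at 28 months. Without replicate 5 at 28 months, or without replicates 1 and 5, 1 gene of this list rose at that age and none fell. The fall of Sema3b was also not called without 4-month replicate 1, 2 or 4 or 28-month replicate 1 or 3.

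Of 15 other genes of citrate transport and metabolism 1 rose at 18 months, and 4 rose and 1 fell at 28 months, with medians of 0.10 and 0.31. Citrate synthase (Cs) rose by 0.47 (SE 0.12, adjusted p = 0.0215) at 18 months and by 0.47 (SE 0.12, adjusted p = 0.00438) at 28 months, and Idh3g, a subunit of mitochondrial isocitrate dehydrogenase, rose by 0.51 (SE 0.14, adjusted p = 0.00837) at 28 months. The single call at 18 months was lost without replicate 4 or 5 at 4 months or without replicate 1, 2 or 5 at 18 months, and 2 genes passed without replicate 3 at 18 months. Ank, which encodes a membrane protein linked to the export of pyrophosphate and citrate, fell by 0.45 (SE 0.13, adjusted p = 0.0147) at 28 months, and this call was lost without replicate 5 at 28 months, alone or with replicate 1. The muscle fibre genes, of which 4 of 9 rose at 28 months, had a median change of 2.19 beside these calls, and their part was not tested.

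Of 10 secreted serine proteases and their inhibitors 2 fell at 18 months, and 3 fell and 2 rose at 28 months, with medians of -0.37 and 0.09. The proprotein convertase Pcsk5 fell by 1.30 (SE 0.19, adjusted p = 4.28e-06) at 18 months and by 1.25 (SE 0.19, adjusted p = 2.24e-06) at 28 months. Htra1 fell by 1.26 (SE 0.25, adjusted p = 0.00131) and 1.33 (SE 0.25, adjusted p = 0.000107). Prss23, the closest relative of Prss35 on the list, did not share the direction and rose by 0.99 (SE 0.24, adjusted p = 0.00312) at 28 months. In the fit without replicates 1 and 5 at 28 months 2 genes of the list fell and 2 rose.

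Of 22 genes of canonical Wnt signalling, a pathway that promotes bone formation, none passed at 18 months (limma, 4 at an unadjusted p below 0.05), and 3 fell and 1 rose at 28 months, with medians of -0.13 and -0.18. The ligand gene Wnt10b fell by 0.67 (SE 0.14, adjusted p = 0.000771), the agonist gene Rspo2 by 0.63 (SE 0.17, adjusted p = 0.00725) and the inhibitor gene Wif1 by 1.49 (SE 0.43, adjusted p = 0.0126). Without replicate 5 at 28 months 2 fell and none rose, without replicates 1 and 5 there was 1 in each direction, and without replicate 1 at 4 months 1 passed at 18 months.

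Among markers of other cells of the bone samples calls occurred in both directions. Of 10 osteoclast genes none passed at 18 months (limma, 1 at an unadjusted p below 0.05) and 6 rose at 28 months, with a median of 0.83. The count was 4 without replicates 1 and 5 at 28 months and 9 with bone fitted alone. Of 13 growth plate chondrocyte genes 12 were below 0 at 18 months, where 1 fell, and 13 at 28 months, where 8 fell, or 7 without the same 2 arrays.

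Of 6 erythroid genes 3 fell at 28 months, with a median of -1.27, and 2 fell without replicates 1 and 5, with a median of -0.44. The count was 5 without replicate 1 or 4 at 28 months, and 3 without replicate 5, where the median was -0.41. With bone fitted alone no erythroid gene passed. Of 7 B lymphocyte genes 1 fell at 28 months, with all arrays and without the same 2, with medians of -0.71 and 0.22, and 2 fell without 28-month replicate 2, 3 or 4 or 4-month replicate 5.

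Of 10 neutrophil granule genes 1 rose at 28 months, a call lost without replicate 5 at 28 months, alone or with replicate 1, or without 4-month replicate 5. Of 7 adipocyte genes 1 rose, a call lost without 28-month replicate 3 or 4-month replicate 2 or 5. Of 8 endothelial genes none passed at either age (limma, 1 at an unadjusted p below 0.05 at 18 months and 0 at 28 months). The part of these cells in the fall of the 3 genes was not tested.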

How the data were processed

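The deposited values are log2 signals of core probe sets. The authors obtained them with Partek software, using RMA with a GC-content adjustment of the background, then quantile normalization and median polish, annotated on mm9. Of 194293 probe sets, 179614 had 1 gene symbol and were used, 1331 had several and 13348 had none. Gene values were means over probe sets. One limma fit (limma 3.58.1, R 4.3.3) of 13 group means over 65 arrays was used. Benjamini-Hochberg adjustment was made over 15830 genes per contrast, with a threshold of 0.05. Correlations used Python 3.11.15. The precision is limited by 5 arrays per group, and p-values measure the spread between these mice. Each gene had 1 variance pooled over all 13 groups, so a group that varied more than the others was given too small an SE. A group that varied less was given too large an SE. For Slc13a5 the SD was 1.52 in bone at 28 months and 0.45 in bone at 4 months, against at most 0.37 outside bone.

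The members and lists were chosen with earlier results of these data known. Named genes were the 3 members, for each list up to 3 genes with the smallest adjusted p among those that passed in bone at 28 against 4 months (printed for the osteocyte, osteoblast and pathway lists), and the genes most correlated with each member (5 over bone arrays, 3 over group means). Same-numbered replicates of a tissue at different ages were different mice by ID, so the numbers do not pair animals. Of 55 such pairs 11 correlated above 0.1 (range -0.47 to 0.57). This cannot tell whether same-numbered arrays were processed together. Alternatives were single-tissue fits, blocks for replicate number or mouse, medians over probe sets, probe set filters at 3 and 5 log2, quantile normalization within tissue, centred array medians, leaving out the 6JA mice and leaving out each array.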

Additional observations from a re-analysis of the deposited data

Results flagged for a closer look

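Prss35 was at 4.62 in skin replicate 5 at 4 months, far above the other 4 arrays of that group (highest 3.26). Slc13a5 was at 3.64 in white adipose replicate 3 at 18 months, against at most 3.24 in the other 4 arrays. These were the 2 arrays whose gap to the nearest array of the group exceeded Dixon's 95% limit, of 39 groups examined for the 3 genes, and chance gives about 5% of groups.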

How the results depend on the processing

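The bone differences from 4 months kept their direction under every alternative run. Medians over probe sets gave -2.92 at 18 and -3.33 at 28 months for Prss35, which has no value with probe sets of mean log2 of at least 5. The Slc13a5 difference between 28 and 18 months changed sign, with a range of -0.15 to 0.70 over arrays left out in turn (negative without replicate 1 at 18 months or replicate 2, 3 or 4 at 28 months).

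With replicate number as a block, 1 gene in place of 2 passed in skin minus white adipose tissue at 4 months (range 1 to 2 over arrays left out), as with medians over probe sets (1) and centred array medians (1). The block changed no other count for the 3 genes. Centring also gave 1 in skin minus thymus (range 1 to 2), 0 in thymus minus white adipose tissue (0 to 1) and 1 in skin at 28 against 18 months (0 to 1). Quantile normalization within tissue gave 1 in skin at 28 against 4 months (0 to 1). Skin minus muscle ranged between 1 and 2. Without the 6JA mice, with 1 array of 4-month muscle left, 0 passed in muscle minus white adipose tissue, and Sema3d in muscle minus thymus was 0.38 in place of -0.24.

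List counts were recomputed after seeing the data. At 18 months a fit of bone alone gave 1 osteoblast, 3 osteocyte, 2 Wnt and 0 citrate genes; probe sets of at least 5 gave 1 osteoblast and 4 osteocyte genes; quantile normalization gave 1 Wnt and 0 citrate genes. At 28 months bone alone gave 6 semaphorin genes, the probe filter 1 Wnt gene and quantile normalization 1 citrate gene. Without replicates 1 and 5 at 28 months 2 osteoblast, 2 Wnt and 1 semaphorin genes passed. Over arrays left out in turn the ranges were 0 to 1 Wnt and 0 to 2 citrate genes at 18 months, and 2 to 4 Wnt, 1 to 3 semaphorin and 5 to 12 osteoblast genes at 28 months. The causes were not tested.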
